A study of Homo sapiens and Mus musculus with 28 samples.

Results

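A set of 10 genes that build and hold chromatin loops were followed through every library of a study of the transcription factor GATA6 in the human colorectal cancer line DLD-1. They are CTCF, SMC1A, SMC3, RAD21, STAG1, STAG2, NIPBL, MAU2, WAPL and PDS5A. The genes were chosen by name for their function, with earlier results of these data known. Their rows were found by Ensembl gene identifier without its version. All 10 were present in each of the 28 libraries, whose tables list 60662 genes (degron), 60649 (culture) and 62700 (xenograft), with 60357 genes in common. All 10 also passed the filter on low counts in every comparison.

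Cohesin is a ring made of SMC1A, SMC3 and RAD21, to which either STAG1 or STAG2 is bound. NIPBL with its partner MAU2 loads the ring on DNA and drives the extrusion of a loop, WAPL with PDS5A or PDS5B takes the ring off again, and CTCF bound to its motif stops extrusion and so sets where loops and domain borders lie. The same ring holds sister chromatids together until mitosis.

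RNA was sequenced from poly-A selected, directional libraries in 3 systems. In the first, DLD-1 cells whose GATA6 carries an auxin-inducible degron (genotype GATA6-AID-IAA7) were sampled untreated (0 h), after 12 h of 500 uM auxin (IAA), after 12 h of auxin and then 24 h without it (washout), and after 72 h of auxin, with 3 libraries each. In the second, DLD-1 cells with a CRISPR knockout of GATA6 (KO) were compared with WT cells in culture, with 3 libraries each. In the third, KO and control DLD-1 cells were grown in the right flank of athymic nude mice of 5 to 6 weeks, 10 mice per condition, with 5 libraries each. The degron controls carry the same tag as the treated cells. The labels speak of positive clones without saying how many were used, and do not say whether the KO is 1 clone or whether libraries of a group come from separate cultures, so the p-values measure only the spread between these libraries. The labels give mouse as the organism of the xenograft libraries, while their values are of human genes, and how mouse reads were treated is not given in the sources used here.

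Totals ran from 14569850 to 36500654 expected counts per library. GATA6 mRNA averaged 14.4 ± 1.55 TPM (a length-corrected relative abundance) after 72 h of auxin and 22.7 ± 1.55 TPM in degron controls (SD, n = 3 each). It averaged 8.57 ± 1.47 TPM in KO and 25.4 ± 6.24 TPM in WT cultures (SD, n = 3 each), and 12.7 ± 2.58 TPM in KO and 27.9 ± 2.45 TPM in control xenografts (SD, n = 5 each). Since the degron acts on protein and a CRISPR cut can leave the transcript in place, these levels do not measure how much GATA6 protein was left. Of 8 intestinal epithelial markers, EPCAM, 3 keratins, CDH1 and CDX2 were expressed in every library, while VIL1 and LGALS4 reached at most 3.17 and 1.03 TPM outside the control xenografts. A list of 12 fibroblast, endothelial and leukocyte markers summed to at most 24.8 TPM in any library. These are human genes, while host stroma in xenografts is of mouse, so the list does not measure that stroma. In the degron series, 4 libraries, replicates 2 and 3 at 12 h and replicates 1 and 3 after washout, held 227 to 4897 haemoglobin counts, against at most 5 in the other degron libraries. Those 4 touch every comparison with 12 h or washout below.

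Promoter sequences of 5 of the genes are shown because their transcripts changed most (NIPBL and WAPL), or because their window holds a GATA core (CTCF and MAU2) or a CTCF core (STAG1). The window of PDS5A also holds a GATA core but is not printed. Each is the 250 bases before the RefSeq start on GRCh38.p14, read 5′ to 3′ on the gene's strand. Capitals mark the searched letters, which are GATAA, the core bound by GATA factors, or its reverse complement TTATC, and the CTCF core written CCA, any 2 bases, AG, any 2 bases, GGC, searched on both strands.
NIPBL (chr5:36876519-36876768, plus strand): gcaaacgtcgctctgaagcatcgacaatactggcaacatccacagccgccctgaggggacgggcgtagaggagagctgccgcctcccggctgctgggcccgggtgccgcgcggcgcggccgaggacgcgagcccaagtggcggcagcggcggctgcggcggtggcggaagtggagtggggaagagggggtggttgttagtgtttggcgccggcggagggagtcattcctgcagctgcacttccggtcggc
WAPL (chr10:86521793-86522042, minus strand): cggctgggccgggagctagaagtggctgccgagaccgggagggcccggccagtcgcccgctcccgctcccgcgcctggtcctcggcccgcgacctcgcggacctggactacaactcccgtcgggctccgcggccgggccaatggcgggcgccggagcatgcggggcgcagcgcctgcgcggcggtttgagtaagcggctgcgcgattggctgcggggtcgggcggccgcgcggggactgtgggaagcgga
CTCF (chr16:67562276-67562525, plus strand): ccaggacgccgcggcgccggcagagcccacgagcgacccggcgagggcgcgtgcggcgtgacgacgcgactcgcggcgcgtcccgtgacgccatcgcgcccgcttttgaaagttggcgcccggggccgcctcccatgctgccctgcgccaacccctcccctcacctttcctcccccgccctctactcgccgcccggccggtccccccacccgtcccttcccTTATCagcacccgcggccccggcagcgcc
MAU2 (chr19:19320579-19320828, plus strand): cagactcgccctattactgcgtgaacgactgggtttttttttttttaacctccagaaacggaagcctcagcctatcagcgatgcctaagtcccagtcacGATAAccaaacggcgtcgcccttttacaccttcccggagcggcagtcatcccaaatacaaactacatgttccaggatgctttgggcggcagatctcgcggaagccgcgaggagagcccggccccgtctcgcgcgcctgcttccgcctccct
STAG1 (chr3:136752379-136752628, minus strand): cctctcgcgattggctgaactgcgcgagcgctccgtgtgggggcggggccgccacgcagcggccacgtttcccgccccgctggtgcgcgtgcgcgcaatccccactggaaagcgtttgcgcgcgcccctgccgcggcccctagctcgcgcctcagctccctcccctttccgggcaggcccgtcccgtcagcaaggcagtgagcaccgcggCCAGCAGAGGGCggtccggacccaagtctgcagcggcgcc

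GATAA or TTATC stood once in the windows of CTCF, MAU2 and PDS5A, and 20.4% of 35116 RefSeq promoter windows of this length hold it. The CTCF core stood once in the STAG1 window, against 2.02% of all windows. Neither was found in the windows of NIPBL, WAPL and SMC3, in the first and second windows of SMC1A, or in the 3 windows of STAG2. A match is only a match of letters, and no binding data were used. The windows of the 5 genes printed above held 22 to 39 CpG dinucleotides, and those of the other members 13 to 34, while the median of all windows was 11. The window of RAD21 was not used here.

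To compare levels between genes, the deposited TPM (which correct for gene length) were used. RAD21, the subunit that closes the ring, had the highest mean TPM of the 10 in all 8 groups, at 92.1 to 170.4 TPM, and no library of the next gene reached it. The loaders were at the other end. NIPBL averaged 5.79 to 11.9 TPM and MAU2 5.84 to 10.9 TPM over the 8 groups, the lowest pair in each. Between these ends lay the remaining 7 genes.

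In degron controls the middle genes were close together. CTCF had 48.6 ± 1.94 TPM, PDS5A 48.0 ± 2.44 TPM, SMC3 46.8 ± 1.03 TPM, SMC1A 46.4 ± 6.77 TPM and STAG2 40.6 ± 3.47 TPM (SD, n = 3), and the ranges of neighbours in that order overlapped. WAPL followed at 27.8 ± 1.71 TPM and STAG1 at 13.9 ± 0.356 TPM, each clear of its neighbours. The place of WAPL differed between groups. It stood above STAG1 in 7 groups, while in KO xenografts its 11.5 ± 0.951 TPM lay below the 13.3 ± 0.640 TPM of STAG1 (SD, n = 5), with overlapping ranges. TPM of the 3 systems rest on different annotation sets and were not tested against each other.

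**Figure D1:**
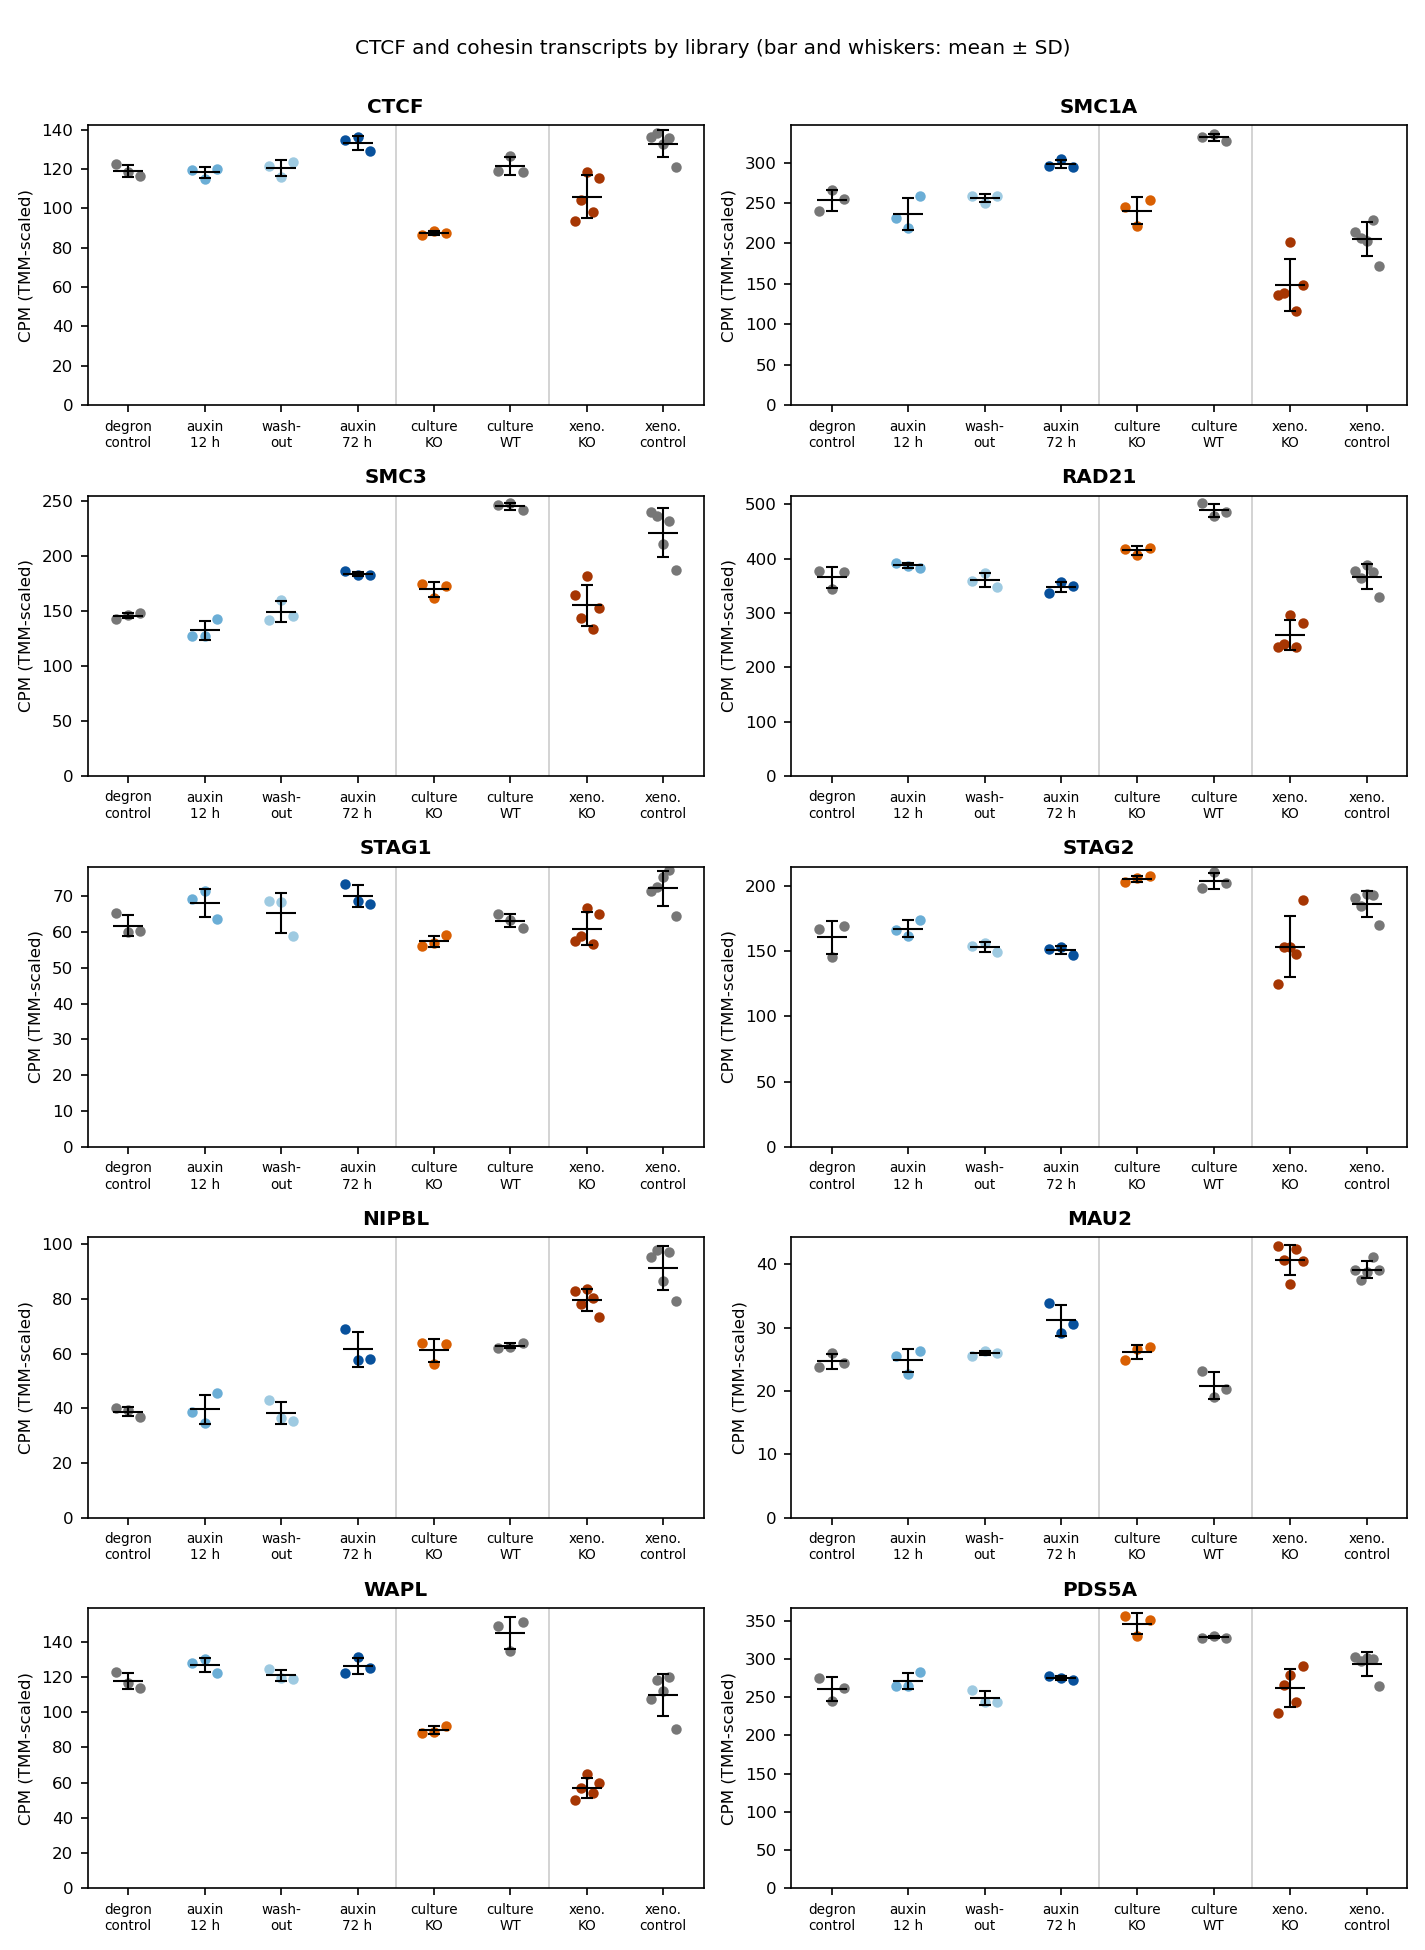
Level of each gene in every library, in TMM-scaled CPM (vertical axes from 0), with the degron series, cultures and xenografts separated by grey lines; points are libraries, bars and whiskers mean and SD. NIPBL after 72 h of auxin lies at 57.5 to 69.1 CPM, above all 3 degron controls, and WAPL in KO xenografts lies at or below 64.7 CPM, under all 5 controls.

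The degron series asks what follows the loss of GATA6 protein over time. Levels are given below in CPM (counts scaled to library size with TMM factors). At 12 h none of the 10 genes was called by edgeR (adjusted p under 0.05), where 7.39% of 14029 genes were, 4.04% higher and 3.35% lower. At an unadjusted p under 0.05 there were 3 (SMC3, STAG1 and WAPL), and DESeq2 and limma called 0 as well. SMC3, a ring subunit, had 128, 127 and 142 CPM at 12 h, against 143, 146 and 148 CPM in controls. Its 12 h libraries all lay just below the controls, and those of RAD21 all above, at 383 to 393 CPM against 343 to 378 CPM. For the other 8 genes the groups overlapped, and ranges of 24% of all genes did not. The log2 fold changes at 12 h ran from -0.14 (SMC3) to 0.14 (STAG1). Without 12 h replicate 3, SMC1A and SMC3 were called lower. The higher share of all calls was 54.7%, against 66.9% with total-count scaling and 71.7% on TPM.

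At 72 h the picture differed from 12 h. Of the 10 genes, 6 rose against degron controls and none fell, with NIPBL in front, followed by MAU2, SMC3, SMC1A, STAG1 and CTCF. Of all 14029 genes, 57.8% were called, 28.3% higher and 29.5% lower, so a share of 6 in 10 called is near that of all genes. The median log2 fold change of the 10 was 0.17, against 0.00 over all genes tested. The 6 are also the 6 whose CPM ranges did not overlap, as was so for 63.9% of all genes. Of 7 epithelial markers tested, 3 were called higher (the keratins KRT8, KRT18 and KRT19) and 3 lower (EPCAM at -0.43, CDH1 at -0.18 and CDX2 at -0.34), with a median of -0.18; the sum of the list, carried by keratins, was 15211 to 15679 TPM at 72 h and 12037 to 12972 TPM in controls. The stromal and leukocyte list summed to 3.46 to 6.41 TPM at 72 h and 1.11 to 1.26 TPM in controls, and the 3 of its 12 genes that could be tested were called higher (VWF at 1.58, CSF1R at 1.65 and CD68 at 0.89), while COL1A2, COL3A1 and LUM were listed at 0 in both groups. The part of either list in the result was not tested. The comparisons of 12 h, washout and 72 h with controls share the same 3 control libraries.

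Both subunits of the loader were higher at 72 h. NIPBL, which activates the cohesin ATPase, had 69.1, 57.5 and 58.1 CPM at 72 h, against 40.0, 39.4 and 36.8 CPM in controls. Every 72 h library lay far above every control. The log2 fold change was 0.67 ± 0.10 (SE; edgeR adjusted p = 1.97e-05), a 1.59-fold difference. MAU2, which binds and stabilises NIPBL, had 33.9, 29.2 and 30.5 CPM at 72 h, against 23.7, 26.0 and 24.4 CPM in controls. Again the groups did not overlap, with a log2 fold change of 0.34 ± 0.07 (SE; edgeR adjusted p = 0.000315).

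Among the ring subunits, the SMC pair rose and RAD21 was not called. SMC3 had 186, 183 and 182 CPM at 72 h, against 143, 146 and 148 CPM in controls. The 72 h libraries were tightly grouped and well above the controls (log2 fold change 0.33 ± 0.05 SE; edgeR adjusted p = 5.83e-06). SMC1A, the partner of SMC3 in the ring, had 295, 304 and 295 CPM at 72 h, against 240, 266 and 255 CPM in controls. Here too the groups were apart, by a log2 fold change of 0.23 ± 0.05 (SE; edgeR adjusted p = 0.000492). RAD21 had 338, 357 and 350 CPM at 72 h, against 378, 343 and 375 CPM in controls, and these overlapped (log2 fold change -0.07 ± 0.05 SE; edgeR adjusted p = 0.189).

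CTCF itself and STAG1 rose by little. CTCF had 135, 136 and 129 CPM at 72 h, against 122, 119 and 116 CPM in controls. Its groups did not overlap (log2 fold change 0.16 ± 0.05 SE; edgeR adjusted p = 0.00439). STAG1, the less abundant of the STAG pair, had a log2 fold change of 0.18 ± 0.06 (SE; edgeR adjusted p = 0.0173), while STAG2 was at -0.09 ± 0.05 (SE; edgeR adjusted p = 0.137). The release factors were not called, with log2 fold changes of 0.10 ± 0.05 for WAPL and 0.08 ± 0.05 for PDS5A (SE; edgeR adjusted p = 0.0824 and 0.169).

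Part of the 72 h result depended on how counts were corrected. With an offset for gene length, SMC1A (0.05) and STAG1 (0.02) were no longer called, and RAD21 (-0.14), STAG2 (-0.24) and PDS5A (-0.11) were called lower, which made 4 higher and 3 lower; NIPBL (0.46), SMC3 (0.23), MAU2 (0.21) and CTCF (0.11) were still called higher. STAG1 also lost its call without control replicate 2, without control replicate 3 and without 72 h replicate 1. Without control replicate 2, RAD21 and STAG2 were called lower, and without control replicate 1, WAPL was called higher. Scaling by total counts moved the median of all genes by 0.12 on the log2 scale and the higher share of all calls to 65.0%, against 48.9%, and 8 members were then called higher.

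Set against 12 h rather than control, 7 of the 10 genes were called at 72 h, 5 higher and 2 lower, where 55.4% of all genes were called, 26.8% higher and 28.6% lower. The same 7 had ranges that did not overlap, as did 63% of all genes. Total-count scaling moved the higher share of all calls to 62.8%, against 48.4%. NIPBL (log2 fold change 0.64), SMC3 (0.47), SMC1A (0.33), MAU2 (0.33) and CTCF (0.17) were the higher ones. RAD21 (-0.16) and STAG2 (-0.15) were the lower ones, and neither was called with total-count or TPM scaling. STAG2 was also not called without 12 h replicate 3 or 72 h replicate 3. Without the 4 haemoglobin libraries, CTCF and STAG2 were not called; that leaves 1 library at 12 h, assumed to vary like those of the other groups. This comparison shares its 72 h libraries with the one above.

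After washout the levels lay near those of the controls. None of the 10 genes was called against degron controls, where 5% of all genes were, 2.64% higher and 2.36% lower. No member had an unadjusted p under 0.05 in edgeR, DESeq2 and limma called 0, and the CPM ranges of all 10 overlapped those of the controls, while 20.8% of all genes had ranges apart. Against 12 h, where 17.4% of all genes were called, 9.27% higher and 8.15% lower, SMC3 alone was higher, with 142, 160 and 146 CPM after washout, against 128, 127 and 142 CPM at 12 h. Those ranges overlapped slightly (log2 fold change 0.17 ± 0.05 SE; edgeR adjusted p = 0.0242). The call was lost with total-count and TPM scaling and without 12 h replicate 1, 12 h replicate 2 or washout replicate 2. Without 12 h replicate 3, SMC1A was also called higher. RAD21, STAG2 and PDS5A lay below 12 h without overlap, as 33.5% of all genes lay apart in 1 direction or the other, and none of the 3 was called. NIPBL stayed at 42.9, 36.3 and 35.5 CPM after washout, within the spread of the 12 h libraries at 38.5, 34.7 and 45.4 CPM.

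In culture, the knockout went with lower levels of SMC1A, SMC3, RAD21, CTCF and WAPL, while PDS5A and STAG2 were not called. Of the 10 genes, 6 fell in KO against WT cells (WAPL, SMC3, CTCF, SMC1A, RAD21 and STAG1) and 1 rose (MAU2). Of 13740 genes tested, 59.1% were called, 28.7% lower and 30.4% higher. The median log2 fold change of the 10 was -0.19, against 0.02 over all genes tested. CPM ranges did not overlap for 8 of the 10, and for 64.3% of all genes. Of 7 epithelial markers tested, 3 were called higher (the same keratins) and 3 lower (VIL1 at -2.45, CDX2 at -0.90 and CDH1 at -0.27), with a median of 0.01, while the keratin-carried sum was 21292 to 22340 TPM in KO and 15616 to 16651 TPM in WT cultures. The stromal and leukocyte list summed to 22.5 to 24.8 TPM in KO and 4.43 to 5.03 TPM in WT cultures, of which CD68 alone, a lysosomal protein, held 20.7 to 22.2 TPM in KO and 2.94 to 3.31 TPM in WT, while COL1A2 and DCN were listed at 0 in every culture. The 3 genes of that list that could be tested, CD68 (log2 fold change 2.65), VWF (0.76) and CSF1R, were called higher. The part of either list in the results was not tested.

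WAPL, which opens the ring and releases it from chromatin, fell most. It had 88.4, 88.7 and 92.3 CPM in KO cells, against 149, 135 and 151 CPM in WT cells. The 3 KO libraries were nearly equal and all far below WT (log2 fold change -0.69 ± 0.05 SE; edgeR adjusted p = 1.74e-08), a 1.61-fold difference. PDS5A, with which WAPL acts, had a log2 fold change of 0.08 ± 0.04 (SE; edgeR adjusted p = 0.134), and was called higher without KO replicate 2.

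The SMC pair and CTCF fell by similar amounts. SMC3 had 175, 162 and 173 CPM in KO cells, against 246, 248 and 242 CPM in WT cells (log2 fold change -0.53 ± 0.04 SE; edgeR adjusted p = 4.36e-08). SMC1A had 245, 222 and 254 CPM in KO cells, against 332, 335 and 326 CPM in WT cells (log2 fold change -0.46 ± 0.05 SE; edgeR adjusted p = 8.71e-07). CTCF had 86.3, 88.2 and 87.5 CPM in KO cells, against 119, 127 and 119 CPM in WT cells (log2 fold change -0.48 ± 0.05 SE; edgeR adjusted p = 3.3e-07). In all 3 genes every KO library was below every WT library.

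RAD21 and STAG1 fell less. RAD21 had 419, 407 and 420 CPM in KO cells, against 502, 479 and 486 CPM in WT cells, without overlap (log2 fold change -0.24 ± 0.04 SE; edgeR adjusted p = 0.000104). On TPM its difference was -0.02 and it was not called. STAG1 was at -0.14 ± 0.05 (SE; edgeR adjusted p = 0.0321), and that call was lost under 9 of 13 alternatives, among them total-count scaling, TPM and a replicate block. STAG2 had 203, 206 and 208 CPM in KO cells, against 199, 211 and 203 CPM in WT cells, with overlap (log2 fold change 0.01 ± 0.04 SE; edgeR adjusted p = 0.836).

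The loader subunits parted in culture. MAU2 had 25.0, 26.6 and 27.0 CPM in KO cells, against 23.2, 19.1 and 20.2 CPM in WT cells. It was higher in every KO library (log2 fold change 0.33 ± 0.08 SE; edgeR adjusted p = 0.00298). NIPBL had 63.8, 56.1 and 63.5 CPM in KO cells, against 62.2, 62.4 and 64.0 CPM in WT cells. Its groups overlapped and it was not called (log2 fold change -0.04 ± 0.06 SE; edgeR adjusted p = 0.570). Under total-count scaling the median of all genes moved to 0.11, the higher share of all calls to 62.2%, against 51.4%, and the members split into 3 higher (MAU2, STAG2, PDS5A) and 5 lower. On TPM the median of all genes was 0.17, the higher share 74.0%, and 3 members were higher and 4 lower.

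**Figure D2:**
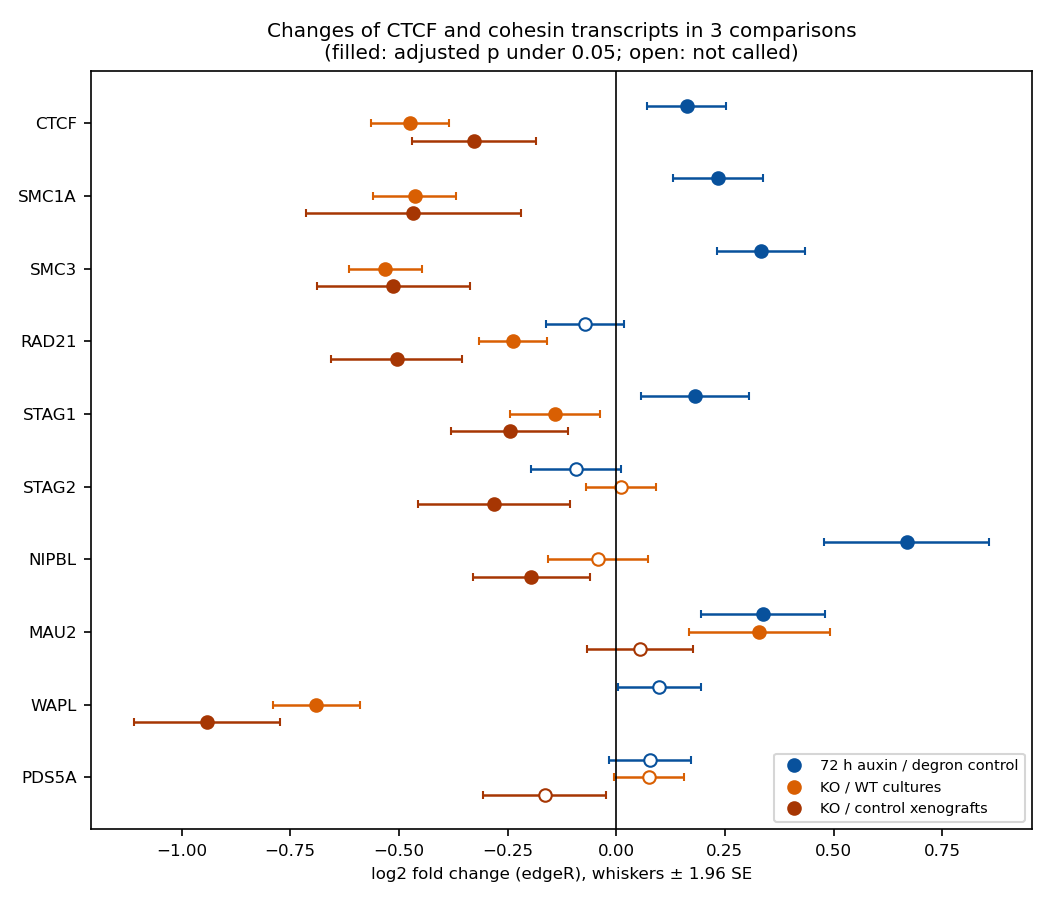
Log2 fold change of each gene (horizontal axis, edgeR) after 72 h of auxin against degron control (blue), in KO against WT cultures (orange) and in KO against control xenografts (brown). Whiskers are 95% intervals by a normal approximation, narrower than the F test implies. Filled points have an adjusted p under 0.05. CTCF, SMC1A, SMC3 and STAG1 lie above 0 at 72 h and below 0 in both knockout comparisons, and WAPL is lowest in both knockouts, at -0.69 and -0.94.

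In xenografts, 8 of the 10 genes fell in KO against control tumours and none rose; MAU2 and PDS5A were not called. Of 14996 genes tested, 56.1% were called, 28.1% lower and 28% higher. The median log2 fold change of the 10 was -0.30, against -0.01 over all genes tested. In bulk tumours, fewer tumour cells and less RNA per cell cannot be told apart. On TPM the higher share of all calls was 39.3%, against 49.9%. Of the 8 epithelial markers, 5 were called higher (the 3 keratins, EPCAM and CDH1) and 3 lower (LGALS4 at -6.41, VIL1 at -4.19 and CDX2 at -0.38). Their sum, carried by keratins, was 11422 to 14839 TPM in KO tumours, against 7568 to 9142 TPM in control tumours, and the 12 stromal and leukocyte markers to 5.65 to 12.5 TPM in KO tumours and 6.35 to 9.33 TPM in control tumours. Of these 12, 4 could be tested: VWF (2.08) and COL1A1 (1.62) were called higher, PDGFRB (-3.12) lower, and CD68 (-0.36) was not called. DCN, PECAM1, CDH5 and PTPRC were listed at 0 in every control tumour and under 1 TPM in every KO tumour. As human genes, the 12 markers do not measure stroma of the mouse host. Nuclear RNAs (a list of 6) summed to 834 to 1172 TPM in KO and 518 to 1320 TPM in control tumours; their part in the results was not tested.

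WAPL again fell most. It had 50.002, 57.0, 64.7, 54.1 and 59.8 CPM in KO tumours, against 108, 118, 112, 120 and 90.2 CPM in control tumours. No KO tumour reached the lowest control (log2 fold change -0.94 ± 0.09 SE; edgeR adjusted p = 2.8e-07), and the difference was 1.92-fold.

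The whole ring was lower. RAD21 had 237, 242, 296, 237 and 281 CPM in KO tumours, against 378, 364, 388, 376 and 329 CPM in control tumours (log2 fold change -0.51 ± 0.08 SE; edgeR adjusted p = 4.82e-05). SMC3 had 165, 143, 182, 133 and 152 CPM in KO tumours, against 240, 236, 211, 232 and 187 CPM in control tumours (log2 fold change -0.51 ± 0.09 SE; edgeR adjusted p = 0.000169). In both genes every KO tumour was below every control. SMC1A had 137, 139, 202, 116 and 149 CPM in KO tumours, against 215, 207, 203, 229 and 172 CPM in control tumours. KO replicate 3 and control replicate 5 made those groups overlap, and the log2 fold change was -0.47 ± 0.13 (SE; edgeR adjusted p = 0.00679).

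CTCF had 93.3, 104, 118, 97.9 and 115 CPM in KO tumours, against 136, 138, 133, 136 and 121 CPM in control tumours. The groups did not overlap, though KO replicate 3 came close to control replicate 5 (log2 fold change -0.33 ± 0.07 SE; edgeR adjusted p = 0.00129). With WAPL, RAD21 and SMC3, CTCF made 4 members without overlap, and 40.9% of all genes had none.

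STAG2 and STAG1 fell with overlapping groups, by log2 fold changes of -0.28 ± 0.09 and -0.24 ± 0.07 (SE; edgeR adjusted p = 0.0141 and 0.00676). NIPBL had 82.8, 78.3, 83.7, 80.4 and 73.4 CPM in KO tumours, against 95.4, 97.9, 86.4, 97.1 and 79.4 CPM in control tumours. Only control replicate 5 fell within the KO range, and the log2 fold change was -0.20 ± 0.07 (SE; edgeR adjusted p = 0.0246). That call was lost under 7 of 17 alternatives, including total-count scaling, the length offset and the omission of control replicate 1, 2 or 4 or of KO replicate 2 or 5. MAU2 was at 0.06 ± 0.06 and PDS5A at -0.16 ± 0.07 (SE; edgeR adjusted p = 0.473 and 0.0654). PDS5A was called lower with total-count scaling, on TPM, and without control replicate 5, KO replicate 3 or KO replicate 5.

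Other gene groups moved with the members in the tumours. All 10 mitosis genes listed fell, as did all 8 condensin genes, where 28.1% of all genes were called lower. Both counts were equal under total-count scaling and on TPM. The 10 mitosis genes summed to 335 to 522 TPM in KO tumours, against 591 to 768 TPM in control tumours. PLK1, a mitotic kinase, had a log2 fold change of -0.85 and BUB1, a spindle checkpoint kinase, -0.89 (edgeR adjusted p = 1.4e-05 and 1.62e-05). In KO cultures the mitosis sum was 1179 to 1212 TPM, against 1128 to 1207 TPM in WT cultures. There 6 of 10 mitosis genes were lower and 2 higher, where 28.7% and 30.4% of all genes were. At 72 h 2 of the 10 were higher, where 28.3% of all genes were, and 7 with total-count scaling. The mitosis sum was 1244 to 1294 TPM, against 1096 to 1145 TPM in degron controls. What part these groups have in the levels of the members was not tested.

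The effect of 72 h of auxin and that of the culture knockout differed for 7 of the 10 genes. The difference was tested by an interaction contrast in 1 fit. All 7 were higher at 72 h relative to the knockout, where 44.1% of 14714 genes were called, 23% higher and 21.1% lower. The difference of the log2 fold changes was 0.88 ± 0.07 for SMC3 (SE; edgeR adjusted p = 9.09e-11) and 0.80 ± 0.07 for WAPL (SE; edgeR adjusted p = 4.41e-10). NIPBL differed by 0.72 ± 0.13, SMC1A by 0.71 ± 0.08, CTCF by 0.65 ± 0.06 and STAG1 by 0.33 ± 0.09 (SE), the last not called with the length offset. RAD21 differed by 0.18 ± 0.06 (SE; edgeR adjusted p = 0.0173), a call lost under 8 of 19 alternatives, among them leaving out control replicate 2, 72 h replicate 2 or 3, or WT replicate 1. The systems also differ in cell clone and treatment, which cannot be told apart from the way GATA6 was lost.

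Between the xenograft and the culture knockout effects no member differed in edgeR, where 27% of 16021 genes were called, 12.6% higher and 14.4% lower. An unadjusted p under 0.05 was found for 4 (RAD21, STAG2, MAU2 and PDS5A), DESeq2 called 0, total-count scaling 5 and limma on TPM 6, all with the more negative effect in xenografts. Leaving out KO xenograft replicate 5 called 3, control xenograft replicate 5 called 2, and KO xenograft replicate 3 or WT culture replicate 1 called 1 each. The 95% intervals of the difference were -0.21 to 0.28 for SMC3 and -0.47 to 0.00 for WAPL. They rest on a normal approximation with the SE and are narrower than the F test implies.

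The balance of loader to release factor was taken as the ratio of NIPBL to WAPL TPM within each library, as a description without a test. It was 0.383 ± 0.0731 at 72 h, against 0.209 ± 0.0289 in degron controls (SD, n = 3 each). In cultures it was 0.472 ± 0.0675 in KO and 0.285 ± 0.0115 in WT (SD, n = 3 each), and in xenografts 0.863 ± 0.102 in KO and 0.515 ± 0.0297 in control (SD, n = 5 each). In all 3 systems the lowest treated or KO library was above the highest control. At 72 h the ratio moved with NIPBL, and in both knockouts with WAPL.

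The STAG2 share of STAG1 plus STAG2 TPM was lower at 72 h than in controls and higher in KO than in WT cultures, without overlap in either pair. It lay between 69.1% and 80.7% in all libraries, at 71.4% ± 1.07 after 72 h and 74.4% ± 1.31 in degron controls, and at 80.3% ± 0.462 in KO and 77.4% ± 0.999 in WT cultures (SD, n = 3 each). In xenografts it was 71.9% ± 2.38 in KO and 72.1% ± 0.696 in control, with overlap (SD, n = 5 each). CTCF per RAD21 was 0.412 ± 0.0165 at 72 h and 0.344 ± 0.0236 in degron controls, and 0.221 ± 0.00233 in KO and 0.268 ± 0.0206 in WT cultures (SD, n = 3 each). In xenografts it was 0.406 ± 0.0151 in KO and 0.358 ± 0.0132 in control (SD, n = 5 each). So CTCF per RAD21 was higher at 72 h and in KO xenografts than in their controls, and lower in KO than in WT cultures. SMC1A per SMC3 was 1.00 ± 0.0541 at 72 h and 0.990 ± 0.131 in degron controls, and 1.18 ± 0.144 in KO and 1.25 ± 0.0505 in WT cultures (SD, n = 3 each). It was 0.621 ± 0.0635 in KO and 0.594 ± 0.0254 in control xenografts (SD, n = 5 each), with overlap in all 3 pairs.

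**Figure D3:**
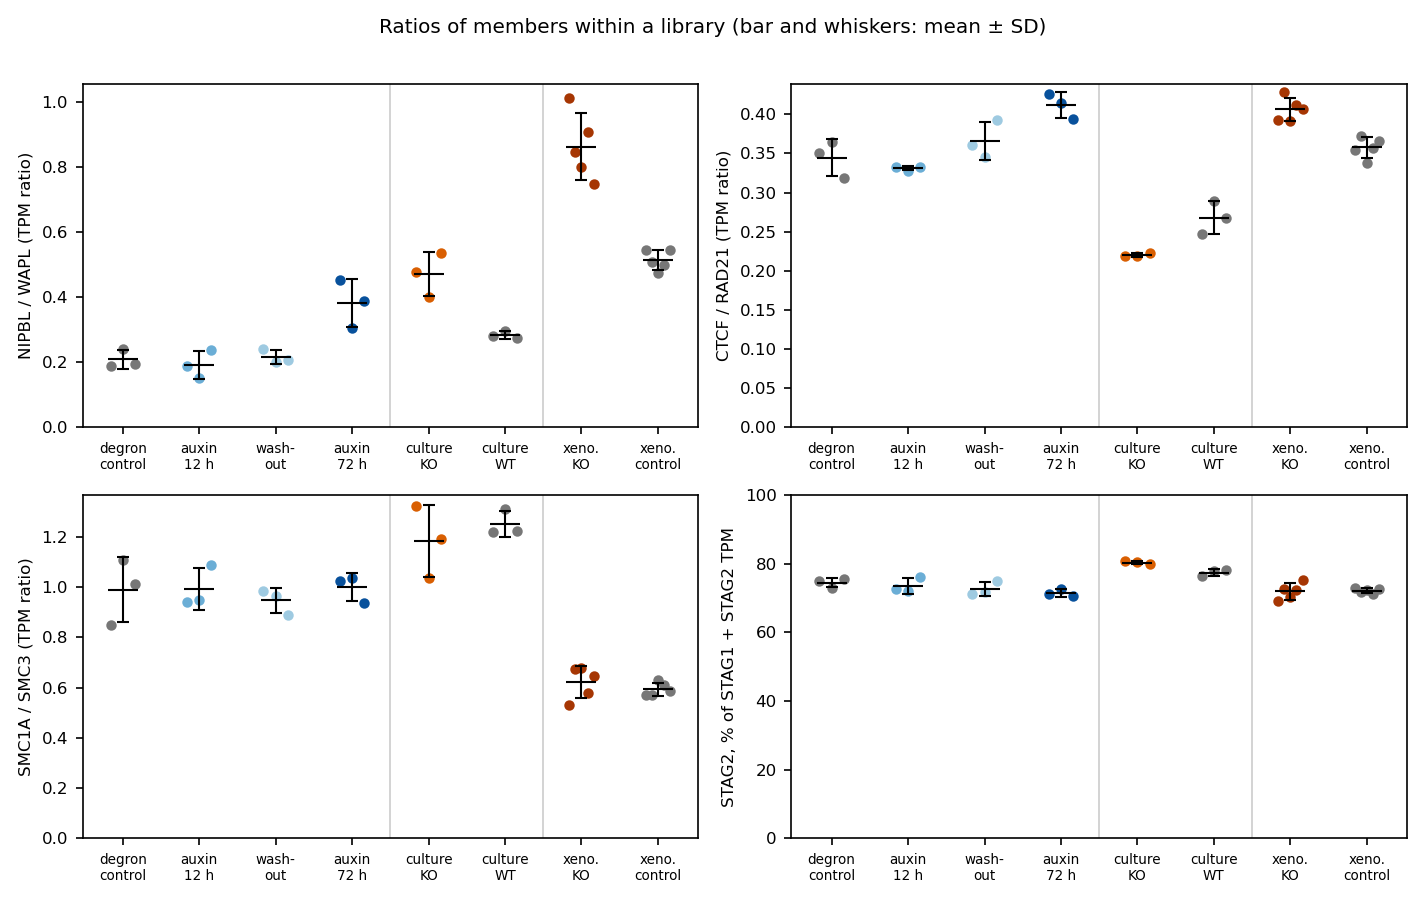
Ratios of TPM between members within each library (vertical axes from 0), by group; points are libraries, bars and whiskers mean and SD. The NIPBL to WAPL ratio is higher after 72 h of auxin and in both knockouts than in their controls. Its group mean is highest in KO xenografts, at 0.863, while the STAG2 share of single libraries stays between 69.1% and 80.7%.

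The other genes of the cohesin cycle did not move as one. At 72 h 57.8% of all genes were called, 28.3% higher and 29.5% lower. In KO cultures it was 59.1% (30.4% higher, 28.7% lower), and in KO xenografts 56.1% (28% higher, 28.1% lower). Counts of this and the following lists that are near these shares are not particular to the list. Of 10 cohesin cycle genes listed (acetyltransferases, protectors, separase and its inhibitor, phosphatase subunits, HDAC8 and PDS5B), 4 rose and 3 fell at 72 h. ESPL1, the separase that cleaves RAD21, was at -0.43 (edgeR adjusted p = 4.13e-06), and PPP2R1A, a phosphatase subunit, at -0.25 (edgeR adjusted p = 1.82e-05). In KO cultures 6 fell and 1 rose, and on TPM 2 fell and 2 rose. CDCA5, the sororin that keeps WAPL off cohesive rings, was at -0.43 (edgeR adjusted p = 6.77e-06), and PPP2R5C at 0.43 (edgeR adjusted p = 6.23e-07). In KO xenografts 6 fell and 2 rose, with ESPL1 at -1.25 (edgeR adjusted p = 1.49e-07) and CDCA5 at -0.71 (edgeR adjusted p = 0.000341). The list medians were 0.05, -0.25 and -0.43 in these 3 comparisons. Germline subunits (STAG3, SMC1B, REC8, RAD21L1) and the CTCF paralog CTCFL together summed to at most 2.24 TPM in any library.

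Condensin, the other ring complex that folds mitotic chromosomes, fell in all 8 listed genes in KO cultures, and in 5 of 8 on TPM. SMC2 was at -0.57 (edgeR adjusted p = 6.75e-09) and NCAPD2 at -0.50 (edgeR adjusted p = 1.88e-07). In KO xenografts NCAPD3 was at -0.68 (edgeR adjusted p = 4.88e-06) and NCAPH at -1.04 (edgeR adjusted p = 6.43e-06). At 72 h 2 rose and 4 fell, while total-count scaling and TPM gave 4 higher and 2 lower. NCAPD3 was at -0.34 and NCAPD2 at -0.31 there (edgeR adjusted p = 4.74e-06 and 5.38e-06).

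Among 12 other loop and enhancer-contact genes, 8 rose and 3 fell at 72 h, and on TPM 6 rose and 0 fell. BRD2, a bromodomain protein, was at 0.30 (edgeR adjusted p = 4.46e-06), and MAZ, a zinc finger protein found with CTCF, at -0.47 (edgeR adjusted p = 2.22e-08), with the opposite sign on TPM at 0.12. In KO cultures 6 fell and 1 rose, with TOP2B, a topoisomerase at loop anchors, at -0.33 (edgeR adjusted p = 1.45e-05); on TPM 2 fell and 2 rose. In KO xenografts 4 fell and 3 rose, with PATZ1, a zinc finger protein, at 0.40 (edgeR adjusted p = 9.41e-05).

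SMC5/6 genes were mixed, with 3 higher and 2 lower of 8 at 72 h, 1 higher and 5 lower in KO cultures, and 1 higher and 4 lower in KO xenografts; with total-count scaling these were 4 and 1, 2 and 3, and 1 and 3. NSMCE4A, a subunit of that complex, was at -0.48, -0.59 and -0.86 in the 3 comparisons (edgeR adjusted p = 9.28e-07, 3.15e-06 and 3.68e-08). SMC6 was higher at 72 h, at 0.53 (edgeR adjusted p = 2.97e-08), and at -0.14 and -0.30 in the knockouts. Of 10 lamina and HP1 genes, 2 rose and 5 fell at 72 h, 1 rose and 7 fell in KO cultures, and 1 rose and 5 fell in KO xenografts; on TPM these were 2 and 2, 2 and 6, and 1 and 5. LBR, which ties heterochromatin to the nuclear envelope, was at -0.41, -0.72 and -1.16 (edgeR adjusted p = 6.06e-07, 1.4e-09 and 1.21e-08).

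**Figure D4:**
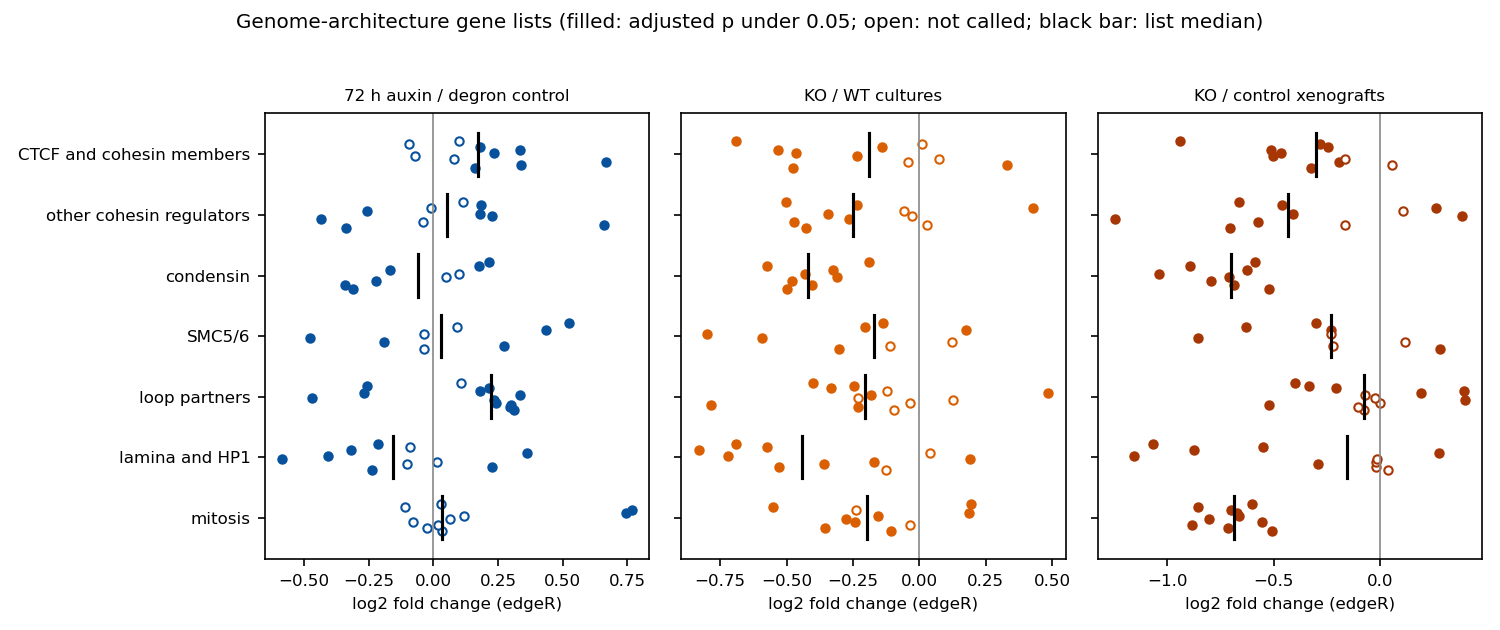
Log2 fold changes (horizontal axes, edgeR) of the 10 members and of 6 other gene lists in the 3 comparisons; each point is a gene, filled where the adjusted p is under 0.05, and black bars are list medians. In KO xenografts all condensin and mitosis genes are filled and below 0, and the members have a median of -0.30.

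Within the set, profiles over the 8 group means of log2 CPM, centred within each system, were closest for SMC1A and SMC3, with a Euclidean distance of 0.113, and next for CTCF and SMC1A, at 0.159. MAU2 and WAPL were the farthest apart, at 1.04, followed by NIPBL and WAPL at 0.879. Outside the set, the 5 of 8999 genes nearest to CTCF were USPL1 (distance 0.0834), THOC6 (0.0865), OBI1 (0.0990), PDHX (0.107) and TGS1 (0.110), where the median gene was 0.584 away. Nearest to NIPBL were GATAD2B (0.0496), ZNF236 (0.0774), ZSCAN29 (0.0906), ZNF101 (0.107) and GON4L (0.116), with a median of 0.760. These are likenesses over 8 points and carry no test. Centring makes each KO value the negative of its control value in cultures and in xenografts, so fewer than 8 values vary freely.

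The genes lie on 8 chromosomes in GRCh38 (GENCODE v29). CTCF spans chr16:67562407-67639185 (plus strand), SMC1A chrX:53374149-53422728 (minus), SMC3 chr10:110567691-110604636 (plus), RAD21 chr8:116845935-116874866 (minus) and STAG1 chr3:136336233-136752403 (minus). STAG2 spans chrX:123960212-124422664 (plus), NIPBL chr5:36876759-37066413 (plus), MAU2 chr19:19320681-19358755 (plus), WAPL chr10:86435256-86521815 (minus) and PDS5A chr4:39822863-39977956 (minus). Exons of STAG1 share 1664 bases with PCCB on the opposite strand, those of CTCF 1326 bases with AC009095.1, those of RAD21 518 bases with UTP23, those of STAG2 241 bases with TENM1, those of MAU2 164 bases with SUGP1 and those of SMC1A 39 bases with RIBC1. Whether counting used strand is not given in the sources used here, so reads of these partners cannot be told apart there. NIPBL, WAPL, SMC3 and PDS5A share no exonic bases with another annotated gene.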

How the data were processed

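The authors deposited, for every one of 28 libraries, a table of expected counts and a table of TPM. Trim Galore 0.6.10, STAR, RSEM and the hg38 build appear in the submitters' processing notes; the role and order of these tools, the annotation release, the strand setting and the treatment of mouse reads are not given in the sources used here. Poly-A selection favours intact messages, and the deposited expected counts share reads between overlapping or similar genes.

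Tests ran on these counts, rounded to whole numbers, with edgeR 4.0.16 under R 4.3.3: a robust quasi-likelihood F test after filterByExpr and TMM scaling. The 12 degron libraries were fitted together, cultures and xenografts each alone, and the effects of 2 systems were compared in 1 fit of both. P-values were adjusted by Benjamini-Hochberg across every gene of a fit, and a gene was called under 0.05. The SE is the size of the log2 fold change over the square root of F. CPM are TMM-scaled, and the deposited TPM were used only for levels, ratios and list sums and in alternatives. The test was checked on simulated data in which only a small part of the genes changed. That does not show how it fares where most genes are called.

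Alternatives were DESeq2 1.42.0, total-count scaling, limma 3.58.1 on log2(TPM + 1) and log2(TPM + 0.1) with a mean TPM of at least 1, no filter, a gene length offset, a replicate block, only the groups compared, the omission of libraries with over 50 haemoglobin counts, and the omission of each replicate. The labels name no batch.

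The members and gene lists were chosen with earlier results of these data known. Named genes are the 10 members, GATA6, up to 2 genes of smallest p per other list (1 of them is not reported here), and the 5 genes nearest in profile to CTCF and NIPBL (mean log2 CPM of at least 3). Promoter windows come from RefSeq; protein sequences were not used here.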

Additional observations from a re-analysis of the deposited data

Results flagged for a closer look

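The lowest control xenograft for PDS5A, replicate 5, had 265 CPM, while the other 4 controls lay at 297 to 302 CPM, a gap large against the range of the group. Of 20 sets of 1 gene and 1 xenograft group checked, this was the only one so far apart, and chance flags about 1 in 20. The sets share the same libraries, so they are not independent checks. Control replicate 5 was also the lowest control for CTCF, RAD21, SMC1A, SMC3, NIPBL and WAPL. None of these passed the limit, a gap of 0.71 of the range, and CTCF came nearest to it at 0.68. Without that library PDS5A was called lower in KO xenografts.

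For 7 genes the effect of 72 h of auxin differed from that of the culture knockout by a test of the difference itself. The log2 differences were 0.88 for SMC3, 0.80 for WAPL, 0.72 for NIPBL, 0.71 for SMC1A, 0.65 for CTCF, 0.33 for STAG1 and 0.18 for RAD21 (edgeR adjusted p from 9.09e-11 to 0.0173). SMC3, SMC1A, CTCF and STAG1 were called higher at 72 h and lower in the knockout. The comparison is of 72 h against degron control set beside KO against WT cultures, and clone and treatment were not tested.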

How the results depend on the processing

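Of the members' log2 fold changes recomputed under settings other than leaving out a replicate, 660 stayed on the same side of the threshold, 40 gained a call, 27 lost one and 3, all of PDS5A, were called with the opposite sign of a value not called before. Values called under neither setting also changed sign, among them at 72 h RAD21 (0.05) and STAG2 (0.03) with total-count scaling and WAPL (-0.06) with the length offset, and on TPM + 1 NIPBL in KO cultures (0.16) and CTCF for xenograft minus culture knockout (-0.10). PDS5A had -0.11 at 72 h against control, -0.11 against 12 h and -0.14 for 72 h minus culture knockout with the length offset, and, outside the set, MAZ had 0.12 and 0.21 on TPM at 72 h against control and against 12 h; the cause was not tested. On TPM + 1 and TPM + 0.1, all genes called were 357 and 353 at 12 h, 1147 and 1148 for washout against 12 h (0 members in both) and 291 and 300 for washout against control, in place of 1037, 2444 and 701. Without haemoglobin libraries they were 333, 334 and 179, but this leaves 1 library at 12 h and 1 after washout, so washout against 12 h is 1 against 1, with the spread taken from the control and 72 h libraries. With only the groups compared, washout against control gave 458. The length offset called 2 members at 12 h (SMC1A and SMC3, lower) and 2 for washout against 12 h. For xenograft minus culture knockout, total-count scaling called 5 members and TPM 6 with either pseudocount. Ratios from CPM per effective length moved by more than 1 SD for CTCF per RAD21 at 12 h (0.326) and in KO cultures (0.227), and for SMC1A per SMC3 after washout (0.997) and at 72 h (0.939). Leaving out a replicate gave 0 to 2 members at 12 h (2 without 12 h replicate 3), 5 to 7 at 72 h, 6 to 7 for 72 h against 12 h, 0 to 2 for washout against 12 h, 0 for washout against control, 6 to 7 in KO cultures, 7 to 9 in KO xenografts, 6 to 7 for 72 h minus culture knockout and 0 to 3 for xenograft minus culture knockout. All genes called ran from 606 to 1170 at 12 h (606 without 12 h replicate 1, 623 without control replicate 2), 7257 to 7685 at 72 h, 6723 to 7650 for 72 h against 12 h, 1414 to 2266 for washout against 12 h (1414 without washout replicate 3, 1566 without 12 h replicate 1), 321 to 896 for washout against control (321 without control replicate 3, 353 without washout replicate 3), 7373 to 8041 in cultures, 7579 to 8496 in xenografts, 5965 to 6529 and 3627 to 4611 for the differences between systems. Same-numbered libraries of different groups correlated between -0.208 and 0.176 in their deviations. Differently numbered pairs were not set beside these, so whether a number marks a shared batch cannot be told. With the replicate block, all genes called were 1202 at 12 h, 2642 for washout against 12 h and 816 for washout against control. Without it they were 1037, 2444 and 701. In KO cultures they were 7723 in place of 8123, and in KO xenografts 8045 in place of 8413. With the block, 6 members were called in KO cultures in place of 7, STAG1 losing its call. In KO xenografts 8 and at 72 h 6 members were called, as without it. Neither depth nor the number of libraries was varied beyond leaving libraries out.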
